A study of Mus musculus with 13 samples.

Results

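The earliest measured difference between pre-B cells that carry an inducible form of Ikaros and their vector control is described here, at 2 h of 4-hydroxytamoxifen, for all genes of the array. It rests on 6 of the 13 arrays of the series, the 3 whose titles name Ikaros-ERt2 cells at 2 h and the 3 whose titles name vector-ERt2 cells. All 6 samples came from B3, a mouse pre-B cell line transduced with a murine stem cell virus vector that also expresses GFP. In the Ikaros-ERt2 cells the vector encoded HA-tagged Ikaros joined to ERt2, a domain taken from the estrogen receptor that binds hormone, and the cells had 2 h of 4-hydroxytamoxifen. In the vector-ERt2 cells it encoded ERt2 alone, and these cells had 6 h of 4-hydroxytamoxifen. No vector-ERt2 sample at 2 h and no Ikaros-ERt2 sample without the drug was analysed here, so the transduced gene, the length of exposure and a difference between the lines that was there before exposure cannot be told apart. The titles call the replicates biological, but the labels do not say whether they came from separate cultures or whether GFP-positive cells were sorted. The variation that the p-values rest on may therefore be partly technical. The series also holds 3 arrays of Ikaros-ERt2 cells at 6 h of the drug, set beside the 2 h values below, and 4 arrays of another type, of B3 cells 48 h after transduction with Ikaros or with its mutant 159A, which lacks normal DNA binding.

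Ikaros, the product of Ikzf1, binds DNA through zinc fingers at sites with the core GGGAA and is needed for the development of lymphocytes. In pre-B cells it is known to act on the pre-B-cell receptor and its surrogate light chain, on recombination and on the exit from the proliferating stage, partly in opposition to growth signals from the interleukin-7 receptor. A protein fused to ERt2 is held inactive until 4-hydroxytamoxifen binds that domain, so that target genes can be read within hours.

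The transduced gene was read first. Ikzf1 stood at 13.40, 13.22 and 13.22 on the 3 Ikaros-ERt2 arrays at 2 h and at 9.16, 9.25 and 9.39 on the vector arrays, as log2 values. The groups lay 16.1-fold apart (log2 change 4.01 ± 0.08, standard error of the fit; limma, adjusted p = 3.8e-10). Vector-ERt2 replicate 1 is called vector in its title and inducible Ikaros in another label, and its value of 9.16 was the lowest of the vector arrays. Over all probe sets the Pearson r was 0.989 to 0.994 between arrays of a group and 0.990 to 0.992 between the groups. Of 12 pre-B markers, 11 had a probe set. Igll1 and Cd79a stood at 13.19 and 11.05 in vector cells, while Rag1 and Rag2, the recombinase genes, stood at 4.24 and 3.59, below the level at which genes were tested. The mean over the pre-B markers was 8.43 to 8.50 on the Ikaros-ERt2 arrays and 8.61 to 8.75 on the vector arrays. Of the 10 myeloid markers, 0 reached the tested level, and the T-cell marker mean was 5.43 to 5.54 against 5.50 to 5.55. Of the markers on the array, 1 of 8 natural killer, 2 of 5 erythroid and 5 of 9 fibroblast genes reached the tested level. Of these 0 were called, where 1.86% of all tested genes were. In the plasma cell list 2 of 5 were tested and 1, Xbp1, was called lower.

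Among the genes called at 2 h, the receptor gene P2ry10, the DNA ligase gene Lig4 and the stress-response gene Trp53inp1 had the largest rises after Ikzf1, and Inka1, the mitophagy gene Bnip3 and the growth regulator Myc the largest falls. Of 11963 genes tested, 223 passed (1.86% of all tested, at a Benjamini-Hochberg adjusted p under 0.05 in limma), 92 higher (0.769%) and 131 lower (1.1%) in Ikaros-ERt2 cells. An array reads a whole culture, so fewer cells that express a gene and less RNA per cell cannot be told apart. In all 223 the 3 Ikaros-ERt2 arrays did not overlap the 3 vector arrays, which was also so for 18.6% of all genes tested. Of the called genes, 19 differed at least 2-fold, 5 of them higher and 14 lower, and 101 at least 1.5-fold, 43 higher and 58 lower. Besides Ikzf1, called rises ran from 0.32 to 1.52 on the log2 scale (median 0.57) and called falls from -0.33 to -1.35 (median -0.56). Over all genes the median difference was -0.01. Of the third of genes with the lowest mean level, 0.677% were called, beside 2.31% and 2.61% of the other two. The count was 83 without Ikaros-ERt2 2 h replicate 1 and 82, 90 and 107 without vector-ERt2 replicates 1, 2 and 3, and 64 of the 223 genes were called in every fit that left out 1 of the 6 arrays. After centring each array on its median, 177 genes were called and 50.8% of them were higher, against 41.3% before.

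**Figure D1:**
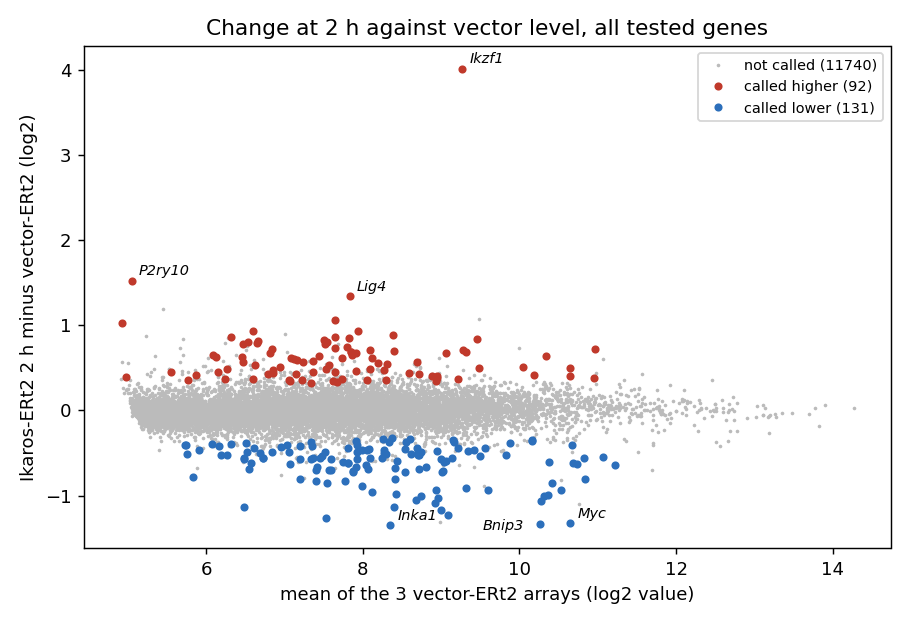
Difference at 2 h (Ikaros-ERt2 minus vector-ERt2, log2) against the mean vector level (log2) for the 11963 genes tested, with called genes in colour and some of the largest named. Called genes lie on both sides of 0, with 92 higher and 131 lower, and Ikzf1 stands alone at 4.01.

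P2ry10, a G protein-coupled receptor gene of lymphocytes, read 6.71, 6.37 and 6.65 in Ikaros-ERt2 cells and 4.90, 4.88 and 5.36 in vector cells. Every Ikaros-ERt2 array lay above every vector array, a 2.88-fold difference (log2 change 1.52 ± 0.13, adjusted p = 3.1e-04). The vector mean of 5.05 lay below the filter level of 5.10, so P2ry10 was tested only through its higher Ikaros-ERt2 arrays. Lig4, the ligase that joins broken DNA ends in V(D)J recombination, read 9.30, 8.81 and 9.41 against 8.03, 7.52 and 7.95. Replicate 2 was the lowest in both groups, and the difference was 2.53-fold (1.34 ± 0.16, adjusted p = 0.00262). Trp53inp1, which encodes a p53-induced nuclear protein, read 9.15, 8.49 and 8.49 against 7.74, 7.78 and 7.42. Ikaros-ERt2 replicate 1 stood above the other two, the groups did not overlap, and the gene was 2.09-fold higher (adjusted p = 0.0211). That call was lost without Ikaros-ERt2 replicate 1 or any 1 vector array (adjusted p up to 0.108). Rhoq, a small GTPase of membrane traffic, read 6.22, 5.81 and 5.82 against 4.88, 5.12 and 4.77 and was 2.04-fold higher (adjusted p = 0.0040). Its vector mean of 4.92 also lay below the filter level. St8sia4, a polysialyltransferase, was 1.91-fold higher and Hsph1, a large heat-shock chaperone, 1.85-fold.

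Smaller rises were those of Tbx19, a T-box factor gene (log2 change 0.86), the D-glutamate cyclase gene Dglucy (0.86), the homeobox gene Hhex (0.85), the intermediate filament gene Vim (0.84), Ddias, whose product protects from apoptosis after DNA damage (0.83), the integrin gene Itga6 (0.82) and the zinc-finger gene Zmat3 (0.80). Tbx19 read 8.78, 8.36 and 8.38 against 7.61, 7.75 and 7.57 in vector cells, and 7.18, 7.01 and 6.68 in Ikaros-ERt2 cells at 6 h. It was thus above every vector array at 2 h (adjusted p = 0.0107) and below every vector array at 6 h (log2 change -0.68, adjusted p = 0.0154), and the fall from 2 h to 6 h, by 1.55, was itself called (adjusted p = 0.00282), as were the changes between the times of 0.903% of all tested genes. The 2 h call of Tbx19 was lost without vector-ERt2 replicate 1 or 3 (adjusted p up to 0.0645). The calls of Dglucy, Hhex, Vim, Ddias and Zmat3 were each lost without 3 or more of the arrays, vector replicates 1 and 2 among them in each case (adjusted p up to 0.154, for Hhex), and that of Itga6 without vector-ERt2 replicate 1 (adjusted p = 0.0529). P2ry10, Lig4, Rhoq, St8sia4, Hivep2 and Hsph1 stayed called whichever array was left out.

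Inka1, which encodes an inhibitor of the kinase Pak4, read 7.02, 6.81 and 7.17 in Ikaros-ERt2 cells and 8.30, 8.37 and 8.38 in vector cells. The vector arrays lay within 0.1 of each other and well above the others, and Inka1 was 2.55-fold lower (log2 change -1.35 ± 0.10, adjusted p = 1.1e-04). Of the other genes with a large fall, Gm10384 (-1.27), the gene 2900026A02Rik (-1.23) and Fam43a (-1.09) were lower on every array. Fam43a read 7.85, 7.82 and 7.82 against 8.95, 8.95 and 8.85, the smallest adjusted p after Ikzf1 (2.8e-05). Ier3, an immediate-early gene, fell by 1.14. Plekho2 fell by 1.13 on its brighter probe set, while its other, dimmer probe set gave -0.28 and the mean of both -0.71. The thrombomodulin gene Thbd fell by 1.05, Pax7, a paired-box factor gene best known from muscle stem cells, by 1.03, and the organic anion transporter gene Slc22a8 by 1.01. Gtf3c5, a subunit gene of the RNA polymerase III factor TFIIIC, and Gfra2, a co-receptor gene for neurturin, were each 2-fold lower. Of these 15 largest falls, counting Bnip3, Myc, Hk2 and Slc2a1 described below, the calls of Slc22a8 and Gfra2 depended on single arrays. Slc22a8 was lost without Ikaros-ERt2 replicate 1 or 3 or vector replicate 1 or 2 (adjusted p up to 0.0948), and Gfra2 without Ikaros-ERt2 replicate 1 or 2 or vector replicate 1 or 3 (adjusted p up to 0.0731).

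**Figure D2:**
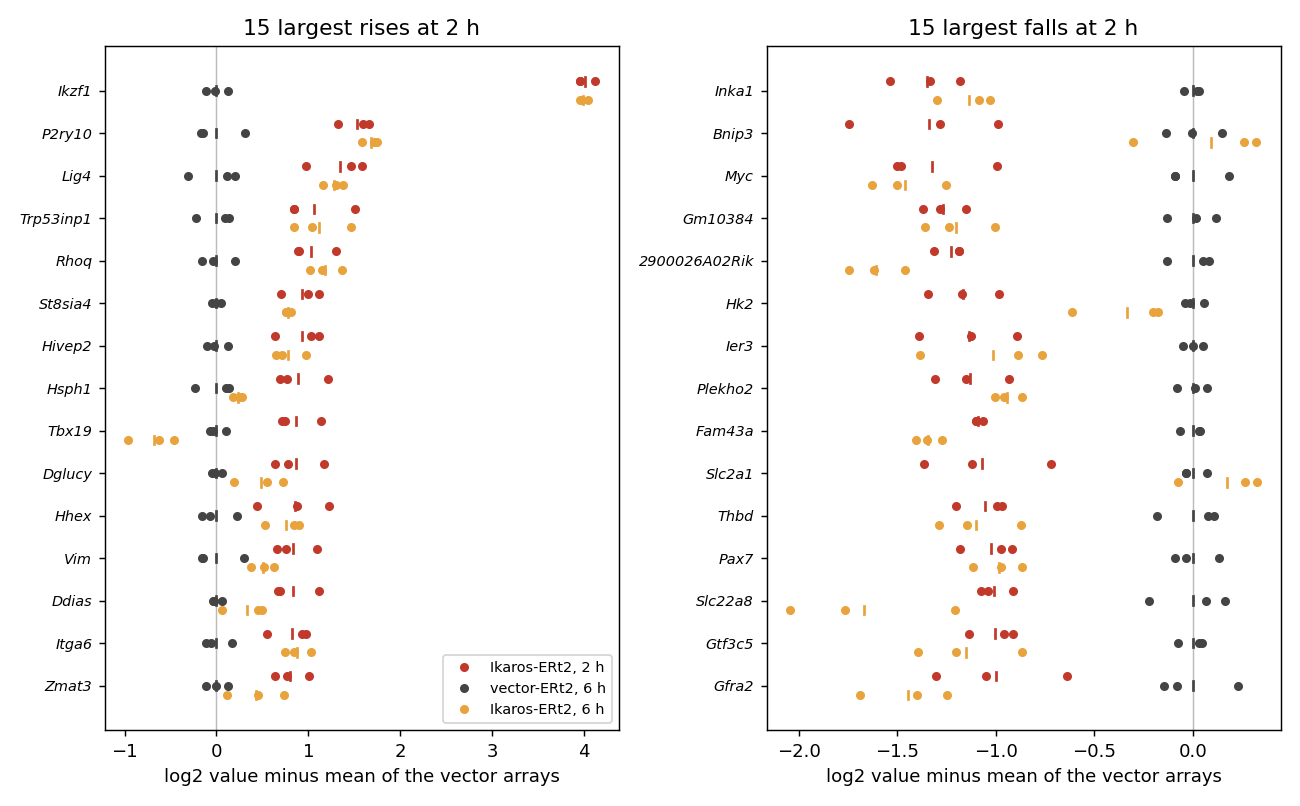
Log2 value of each array minus the mean of the vector arrays (points) and group mean (bars) for the 15 largest rises and 15 largest falls at 2 h, in Ikaros-ERt2 cells at 2 h, vector-ERt2 cells and Ikaros-ERt2 cells at 6 h (3 arrays each). The genes were picked so that their 2 h and vector points do not overlap, which was also so for 18.6% of all genes tested. At 6 h Tbx19 lies below, and Bnip3 and Slc2a1 near, the vector arrays.

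Among 31 lymphoid transcription factor genes tested, 4 rose and 2 fell (19.4% called, beside 1.86% of all tested genes). The list median was 0.01. Besides Ikzf1 the rises were those of Hivep2, a zinc-finger factor that binds enhancer elements (log2 change 0.93, adjusted p = 0.0051), Sox4, which B-cell precursors need (0.75, adjusted p = 0.00764), and Foxo1, which drives recombinase and interleukin-7 receptor genes (0.67, adjusted p = 0.0175). Sox4 read 8.65, 8.53 and 8.48 against 7.64, 7.73 and 8.04, and by 6 h it was back at 8.04, 7.76 and 7.95. All 3 arrays at 2 h lay above both other groups, and the fall from 2 h to 6 h, by 0.63, was called (adjusted p = 0.030). Foxo1 read 8.66, 8.38 and 8.72 against 7.75, 7.89 and 8.10 in vector cells. It did not overlap and stayed up at 6 h (0.85, adjusted p = 0.00201). Irf4, a factor that rises with pre-B-cell receptor signalling, read 5.36, 5.42 and 5.23 against 5.75, 5.82 and 5.66 (-0.41, adjusted p = 0.0424). Xbp1, the secretory factor, stood at -0.38 (adjusted p = 0.047). Irf4 and Xbp1 were lost whichever array was left out (adjusted p up to 0.19), so that 0 falls were called in this list, and Foxo1 was lost without Ikaros-ERt2 replicate 1 or 3 or vector replicate 1 or 2 (adjusted p up to 0.101). The B-lineage factors Pax5 (0.03), Tcf3 (-0.07) and Ikzf3, the gene of the Ikaros relative Aiolos (-0.08), did not pass the test, nor did Ebf1 at -0.26.

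Of 18 genes of the Foxo factors and their known targets, 3 rose and 0 fell (16.7% called, beside 1.86% of all tested genes). The rises were those of Trp53inp1, Foxo1 and Bcl2l11, the gene of the pro-apoptotic protein Bim. Bcl2l11 read 7.15, 6.92 and 7.18 against 6.50, 6.40 and 6.47, with no overlap between the groups (log2 change 0.62 ± 0.09, adjusted p = 0.0051), and its call held whichever array was left out. Without Ikaros-ERt2 replicate 1 or vector replicate 1 or 2 it was the 1 called rise of the list. The list median was -0.01, equal to that of all genes, and other known Foxo targets stood on both sides of 0, Gadd45a at 0.62 (adjusted p = 0.0663) and Txnip at -0.48 (adjusted p = 0.0547). At 6 h, when 5.78% of all tested genes were called, 6 of the 18 were higher and 1 lower against the same vector arrays. Bcl2l11 was also the single called member among 13 Bcl2 family genes (7.69%), where Mcl1 (-0.03), Bcl2 (0.02) and Bcl2l1 (-0.09) were near 0.

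The pre-B-cell receptor pairs the immunoglobulin heavy chain with a surrogate light chain made of Igll1 and VpreB proteins. Of 28 genes of the receptor and its signalling, 0 rose and 1 fell (3.57% called, beside 1.86% of all tested genes). That gene, Vpreb1, read 9.35, 9.38 and 9.19 in Ikaros-ERt2 cells and 9.98, 9.71 and 9.79 in vector cells. The log2 change was -0.52 ± 0.11 (adjusted p = 0.0389). The groups did not overlap, though the call was lost whichever array was left out (adjusted p up to 0.154). The list median was -0.11, and 20 of the 28 had a negative value. Igll1 stood at -0.26 (adjusted p = 0.368) and the adaptor gene Blnk at -0.60 (adjusted p = 0.0709). At 6 h, when 5.78% of all tested genes were called, 7 of the 28 were lower and 2 higher. Vpreb1 then stood at -1.17, Igll1 at -1.07 and Blnk at -0.94 against the same vector arrays. The further fall of Vpreb1 from 2 h to 6 h, by 0.65, was called (adjusted p = 0.0282).

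Among 16 inhibitory receptor and phosphatase genes, 1 rose and 1 fell (12.5% called, beside 1.86% of all tested genes). Inpp5d, which encodes the phosphatase SHIP1, read 10.48, 10.46 and 10.62 against 11.07, 10.98 and 11.14 and fell by 0.54 (adjusted p = 0.00452), a call that held whichever array was left out. Fcgr2b, the inhibitory Fc receptor gene, read 5.42, 5.35 and 5.34 against 5.02, 4.91 and 4.99 (0.39, adjusted p = 0.0449), and this call was lost whichever array was left out (adjusted p up to 0.19). Its vector mean of 4.97 lay below the filter level of 5.10. Of 16 recombination and end-joining genes, Lig4 alone was called (6.25%). Its partner Xrcc4 stood at 0.49 (adjusted p = 0.057), while Xrcc5 (-0.01) and Xrcc6 (0.18), the Ku subunits, did not pass the test.

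The interleukin-7 receptor signals through Jak1 and Stat5. Of 15 genes of this pathway, 0 rose and 2 fell (13.3% called, beside 1.86% of all tested genes). Both falls held whichever array was left out. Jak1 read 10.12, 9.99 and 10.21 against 10.66, 10.69 and 10.84 (log2 change -0.63 ± 0.08, adjusted p = 0.00275), with a gap between the groups. Il2ra, the gene of the interleukin-2 receptor alpha chain and a known Stat5 target, read 5.15, 5.01 and 4.99 against 5.80, 5.85 and 5.85 (-0.78, adjusted p = 0.00452). Its Ikaros-ERt2 means at 2 h (5.05) and 6 h (5.08) lay below the filter level of 5.10, so Il2ra was tested only through its higher vector arrays. Il7r itself stood at -0.34 (adjusted p = 0.366), Stat5a at -0.23 (adjusted p = 0.173) and Stat5b at -0.05, and the Pim kinase genes lay between -0.02 and -0.01.

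Myc, the master regulator of growth and ribosome production, read 9.17, 9.15 and 9.66 in Ikaros-ERt2 cells and 10.56, 10.56 and 10.84 in vector cells. The highest Ikaros-ERt2 array was below the lowest vector array, and Myc was 2.5-fold lower (log2 change -1.32 ± 0.15, adjusted p = 0.00167). At 6 h it read 9.02, 9.15 and 9.40, with no change called from 2 h (-0.14, adjusted p = 0.765). Of 26 genes of Myc, its Max partners, D-type cyclins and cell-cycle inhibitors, 7.69% were called, beside 1.86% of all tested genes. The other called gene was Cdkn2c, which encodes the Cdk4 and Cdk6 inhibitor p18. It read 8.91, 8.63 and 8.69 against 8.33, 8.05 and 8.18 (0.56, adjusted p = 0.0373) and was lost whichever array was left out (adjusted p up to 0.171). The cyclin genes Ccnd2 (-0.23) and Ccnd3 (-0.06) and the kinase gene Cdk6 (-0.49, adjusted p = 0.0944) did not pass the test. Ribosome biogenesis genes, many of them known Myc targets, had a median change of -0.07 at 2 h. Of 35 tested, 25 were negative and 10 positive, and 1 was called (2.86%). That gene was Polr1b, a subunit gene of RNA polymerase I. It read 8.47, 8.26 and 8.56 against 9.07, 8.98 and 9.05 (-0.60, adjusted p = 0.00486). At 6 h, when 5.78% of all tested genes were called, 22 of the 35 were lower and the median was -0.44. From 2 h to 6 h Polr1b fell further, by 0.43 (adjusted p = 0.0436). Bop1 (-0.03) and Rrs1 (-0.04) were at the vector level at 2 h, and Rrs1 stood at -0.85 at 6 h.

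At 2 h, 4.65% of the DNA replication genes and 3.33% of the G2 and mitosis genes were called, beside 1.86% of all tested genes. Of 43 S-phase genes, 2 rose and 0 fell, the cyclin gene Ccne2 (log2 change 0.47, adjusted p = 0.020) and the replication initiator gene Mcm10 (0.35, adjusted p = 0.0425), and 37 of the 43 were positive, with a median of 0.10. With the replicate number as a block, Mcm10 was not called (adjusted p = 0.0564). Of 30 G2 and mitosis genes, Ect2, a guanine nucleotide exchange factor gene of cytokinesis, rose (0.38, adjusted p = 0.0365), and 27 were positive, with a median of 0.13. Ccne2 was lost without Ikaros-ERt2 replicate 1 or any 1 vector array (adjusted p up to 0.109), and Mcm10 and Ect2 without these or Ikaros-ERt2 replicate 3 (up to 0.171), so that 0 S-phase genes were called without Ikaros-ERt2 replicate 1 or any 1 vector array.

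Genes of glucose uptake and of the response to low oxygen held several of the largest falls at 2 h, and most of their members were below the vector level. Cells take up glucose through Slc2a1 and Slc2a3 and trap it with hexokinase, and hypoxia-inducible factor, which binds sites with the core ACGTG, is a known activator of these genes and of Bnip3, Ankrd37, Vegfa and Car9. Of 19 glucose uptake and glycolysis genes, 0 rose and 3 fell, 16 were negative and the median was -0.31. Of 18 low-oxygen genes outside glycolysis, 0 rose and 6 fell, 15 were negative and the median was -0.38. The called shares of these lists were 15.8% and 33.3%, beside 1.86% of all tested genes, whose median was -0.01. At 6 h, the same lists had medians of -0.02 and 0.07 against the same vector arrays. Of the glucose genes 0 of 19 were called, and 1 of 18 low-oxygen genes in each direction, beside 5.78% of all tested genes. The vector arrays had 6 h of the drug like the 6 h Ikaros-ERt2 arrays, so the length of exposure and time in culture cannot be told apart from the transduced gene in these 2 h values.

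The regions just before the start of 5 of these genes are shown because they hold the ACGTG core. Each is the 250 bases upstream of the start in RefSeq annotation of GRCm38.p6, written 5′ to 3′ in the direction of the gene, with ACGTG or its reverse complement CACGT in capitals. They lie at chr8:45999851-46000100 on the minus strand (Ankrd37), chr7:138909507-138909756 on the minus strand (Bnip3), chr6:82774455-82774704 on the minus strand (Hk2), chr4:119108495-119108744 on the plus strand (Slc2a1) and chr4:43506776-43507025 on the plus strand (Car9).
Ankrd37: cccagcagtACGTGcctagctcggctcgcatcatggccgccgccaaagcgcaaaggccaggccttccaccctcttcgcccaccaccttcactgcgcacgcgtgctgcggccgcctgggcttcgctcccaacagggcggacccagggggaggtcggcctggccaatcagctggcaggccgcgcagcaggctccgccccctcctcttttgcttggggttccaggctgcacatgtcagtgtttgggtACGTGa
Bnip3: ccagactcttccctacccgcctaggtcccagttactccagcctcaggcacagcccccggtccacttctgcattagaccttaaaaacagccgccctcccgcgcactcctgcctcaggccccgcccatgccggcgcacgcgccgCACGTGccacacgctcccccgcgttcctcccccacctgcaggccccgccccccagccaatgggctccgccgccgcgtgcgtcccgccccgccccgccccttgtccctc
Hk2: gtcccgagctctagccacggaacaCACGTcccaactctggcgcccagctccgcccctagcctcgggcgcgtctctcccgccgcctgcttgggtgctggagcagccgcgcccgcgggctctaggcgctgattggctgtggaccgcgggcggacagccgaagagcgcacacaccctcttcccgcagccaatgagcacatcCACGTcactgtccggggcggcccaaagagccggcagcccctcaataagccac
Slc2a1: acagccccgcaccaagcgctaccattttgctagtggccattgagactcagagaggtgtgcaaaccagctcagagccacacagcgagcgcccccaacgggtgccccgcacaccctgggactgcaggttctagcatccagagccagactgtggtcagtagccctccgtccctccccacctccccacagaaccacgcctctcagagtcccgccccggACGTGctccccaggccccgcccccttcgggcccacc
Car9: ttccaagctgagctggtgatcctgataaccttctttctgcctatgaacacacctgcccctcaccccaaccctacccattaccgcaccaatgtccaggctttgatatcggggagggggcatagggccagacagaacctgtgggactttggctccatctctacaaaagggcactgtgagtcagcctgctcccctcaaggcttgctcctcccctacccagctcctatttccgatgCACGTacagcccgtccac
Counted to its first base, the core lay 241 and 6 bases before the start of Ankrd37, 226 and 52 before Hk2, 36 before Slc2a1 and 18 before Car9. In Bnip3 it was read on both strands of 1 palindrome, CACGTG, 108 and 107 bases before the start. Of the 9 called genes of these lists, 6 had a window, and 5 of the 6 (83.3%) held ACGTG on either strand. The sixth, Vegfa, held none in this window. ACGTG stood in 21.8% of the 9565 tested genes with a window and in 28 of 107 called falls (26.2%). These lists hold known targets of hypoxia-inducible factor, and their uncalled members were not counted. The 83.3% can therefore not be tied to the fall at 2 h. A match describes these letters and is no evidence that a factor binds there.

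Bnip3, whose product targets mitochondria for removal, read 8.52, 8.98 and 9.27 in Ikaros-ERt2 cells at 2 h, 10.12, 10.41 and 10.26 in vector cells and 9.96, 10.58 and 10.52 in Ikaros-ERt2 cells at 6 h. All 3 arrays at 2 h lay below all 6 others. The difference from the vector was -1.34 ± 0.19 on the log2 scale (2.53-fold, adjusted p = 0.0065), a second Bnip3 probe set gave -1.27, and the rise from 2 h to 6 h, by 1.43, was called (adjusted p = 0.0158). Slc2a1, the main glucose transporter gene, read 9.16, 9.56 and 8.92 against 10.24, 10.24 and 10.35, and 10.20, 10.54 and 10.60 at 6 h. The 2 h arrays again lay below all 6 others (-1.07, 2.1-fold, adjusted p = 0.0051), and Slc2a1 was higher by 1.24 at 6 h than at 2 h (adjusted p = 0.00896). Hk2, the inducible hexokinase gene, read 7.66, 8.02 and 7.83 against 8.99, 8.96 and 9.06, and 8.39, 8.82 and 8.80 at 6 h. It was 2.24-fold lower at 2 h (-1.17, adjusted p = 0.00114), stood between the 2 h and vector levels at 6 h, and was higher by 0.83 at 6 h than at 2 h (adjusted p = 0.0176). Ankrd37, an ankyrin-repeat gene that is a known target of hypoxia-inducible factor, stood at -0.83 and Bhlhe40, a transcriptional repressor gene, at -0.70, and they were higher at 6 h than at 2 h by 1.03 (adjusted p = 0.0213) and 0.90 (adjusted p = 0.0176). Slc2a3 (-0.44), the Bnip3 relative Bnip3l (-0.62), Vegfa, the vascular growth factor gene (-0.52), and Car9, a carbonic anhydrase gene (-0.39), were the other called members.

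Other members lay lower at 2 h without passing the test, among them the lactate exporter gene Slc16a3 at -1.31 (adjusted p = 0.0941) and the disulfide oxidase gene Ero1a at -1.10 (adjusted p = 0.0633). Aldoa (-0.42), Tpi1 (-0.36), Pgk1 (-0.36) and Ldha (-0.25), which encode glycolytic enzymes, did not pass either, and Hif1a, the gene of the factor's regulated subunit, stood at 0.25 (adjusted p = 0.139). The calls of Bnip3, Hk2 and Slc2a1 held whichever array was left out. The number of called low-oxygen genes fell from 6 to 1 without Ikaros-ERt2 replicate 1, vector replicate 1 or vector replicate 3, to 2 without vector replicate 2 and to 3 without Ikaros-ERt2 replicate 2 or 3, and glucose genes from 3 to 2 in each case. The glucose median was -0.20 without Ikaros-ERt2 replicate 1. With the replicate number as a block, Slc2a3 (adjusted p = 0.0517) and Car9 (adjusted p = 0.060) were not called.

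**Figure D3:**
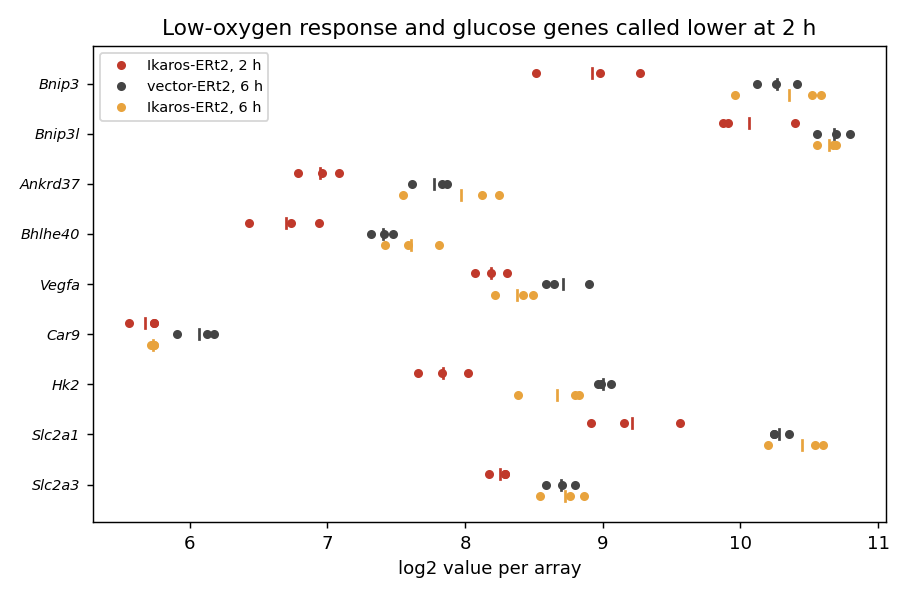
Log2 value of each array (points) and group mean (bars) for the 9 called glucose and low-oxygen genes, in Ikaros-ERt2 cells at 2 h and 6 h and in vector-ERt2 cells (3 arrays each). The genes were picked as called lower at 2 h, and their 2 h points lie left of the vector points. At 6 h the range of Bnip3, Bnip3l, Slc2a1, Slc2a3, Ankrd37 and Bhlhe40 overlaps that of the vector.

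Of 17 p53 target genes, 2 rose and 0 fell (11.8% called, beside 1.86% of all tested genes). The rises were Trp53inp1 and Zmat3 (log2 change 0.80, adjusted p = 0.0195), and the list median was 0.26. Ccng1 stood at 0.73 (adjusted p = 0.102) and Mdm2, the negative regulator of p53, at 0.28 (adjusted p = 0.281). Leaving out Ikaros-ERt2 replicate 1 or any 1 vector array left 0 called members, and leaving out Ikaros-ERt2 replicate 2 left 1. Cytosolic heat-shock chaperones had a median of 0.24, or 0.14 without Ikaros-ERt2 replicate 1, with 1 of 18 called (5.56%). That gene, Hsph1, read 9.59, 9.14 and 9.07 at 2 h, 8.48, 8.15 and 8.51 in vector cells and 8.66, 8.56 and 8.62 at 6 h, so that the 2 h arrays lay above both other groups (0.89, adjusted p = 0.00808). The classic stress-induced gene Hspa1a stood at -0.15.

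Immediate-early genes and genes that damp the ERK kinase pathway were mixed. Of 28 tested, 2 rose and 6 fell (28.6% called, beside 1.86% of all tested genes). In all, 22 were negative, with a median of -0.12. The falls were those of Ier3, Dusp7 (-0.69), Zfp36l2 (-0.61), Spry1 (-0.56), Dusp4 (-0.49) and Ier2 (-0.46), the last chosen after its value was seen. Ier3 read 5.59, 5.36 and 5.10 against 6.49, 6.54 and 6.44, and Zfp36l2, which encodes an RNA-destabilising protein, read 9.77, 9.73 and 9.81 against 10.33, 10.31 and 10.48. Both held whichever array was left out, while Dusp7, Spry1 and Dusp4, which encode phosphatase and Sprouty inhibitors of ERK signalling, were lost in each case (adjusted p up to 0.18). Dusp5, another ERK phosphatase gene, rose (0.69, adjusted p = 0.0147), reading 8.41, 8.43 and 8.74 against 7.77, 7.79 and 7.97, as did Zfp36 (0.37), also chosen after its value was seen. Dusp5 was lost without vector replicate 1 or 2 (adjusted p up to 0.0827), which left 0 rises, and it was the 1 called rise without any other array. The list's number of falls was 3 without Ikaros-ERt2 replicate 2 and 2 without any other array. Egr1 (-0.19), Fos (0.22) and Jun (0.11) did not pass. Of 16 Rel and NF-kB genes, Rel alone was called (6.25%). It read 7.57, 7.50 and 7.59 against 6.85, 6.88 and 6.78 (0.72 ± 0.09, adjusted p = 0.00268) and held whichever array was left out, while Rela (-0.06) and Nfkbia (-0.06) were near 0.

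Of 25 surface, adhesion and migration genes, 4 rose and 4 fell (32% called, beside 1.86% of all tested genes). The rises were P2ry10, Itga6, Cxcr4, the chemokine receptor gene for retention in bone marrow (0.63, adjusted p = 0.0165), and the tetraspanin gene Cd81 (0.41), chosen after its value was seen. Cxcr4 read 11.02, 11.12 and 10.77 against 10.43, 10.25 and 10.32, and at 6 h it stood at 0.23 (adjusted p = 0.316). The falls were Cd93 (-0.80, adjusted p = 0.00777), a marker of early B cells, the integrin gene Itga4 (-0.72), Spn, which encodes CD43, a surface protein that is lost as B-cell precursors mature (-0.67, adjusted p = 0.00764), and Selplg, a selectin ligand gene (-0.34), chosen after its value was seen. Cd93 read 9.85, 10.03 and 10.21 against 10.80, 10.85 and 10.85 and held whichever array was left out. Spn read 6.85, 6.55 and 6.84 against 7.51, 7.26 and 7.48 and was lost without vector replicate 1 (adjusted p = 0.0509). Cxcr4 was lost without Ikaros-ERt2 replicate 1 or 2 or any 1 vector array (up to 0.0937), and Itga4 without Ikaros-ERt2 replicate 1 or 3 or any 1 vector array (up to 0.0778). The list then kept between 2 and 4 rises and between 1 and 3 falls.

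Sterol synthesis and uptake genes had a median of -0.15 and 18 of 20 were negative, with 0 called by limma and 6 at an unadjusted p under 0.05. Those with the smallest p were Srebf2, the regulator of the pathway (-0.31, adjusted p = 0.070), and Stard4 (-0.47, adjusted p = 0.0936), and at 6 h the median was 0.15. Of 23 amino acid and unfolded-protein stress genes, 0 were called by limma, with 4 at an unadjusted p under 0.05, and the median was 0.04, with Phgdh, of serine synthesis, at 0.50 (adjusted p = 0.0663) and Sesn2 at 0.38 (adjusted p = 0.0577). Of 11 housekeeping genes, 0 were called by limma, with 1 at an unadjusted p under 0.05, and their values lay between Gusb at -0.16 and Tbp at 0.25. Over all tested genes, 1691 had an unadjusted p under 0.05.

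**Figure D4:**
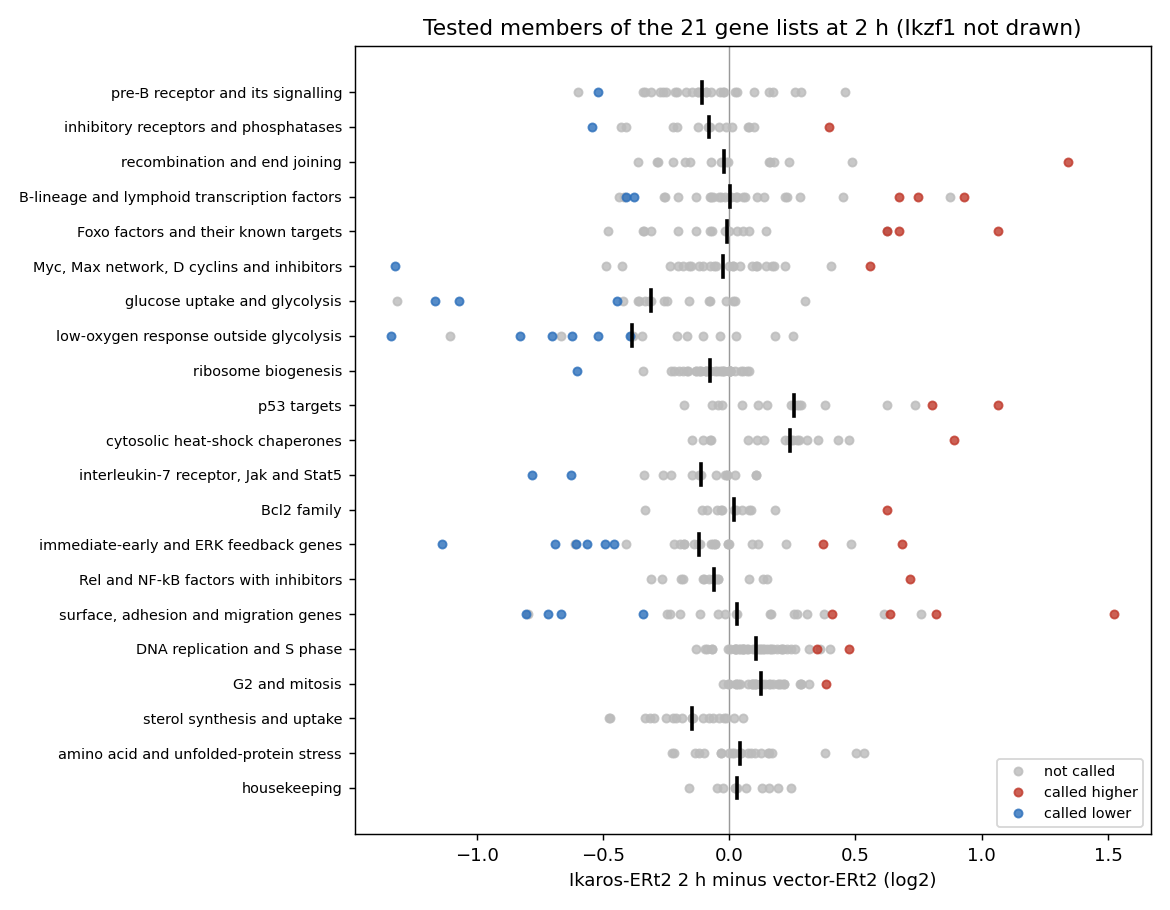
Difference at 2 h (log2) of each tested member of the 21 gene lists, with called members in colour and the list median as a bar; Ikzf1 is not drawn. The low-oxygen and glucose lists have the lowest medians, -0.38 and -0.31, and the p53 and heat-shock lists the highest, 0.26 and 0.24.

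The letters of the Ikaros core were looked for in the same kind of window. TGGGAA, a longer form of the core that contains GGGAA, stood on either strand in 20.1% of the 9565 tested genes with a window, in 12 of 69 called rises with a window (17.4%) and in 29 of 107 called falls (27.1%). GGGAA stood in 58.5% of all, in 56.5% of rises and in 67.3% of falls. Of the 15 largest falls, 11 had a window, and 0 of these held TGGGAA. Of the 14 largest rises besides Ikzf1, 11 had a window and 2 held it, Tbx19 and Ddias. The window of Tbx19 is shown for its turn between 2 h and 6 h. It lies at chr1:165160774-165161023 on the minus strand, with the match in capitals, 87 bases before the start.
Tbx19: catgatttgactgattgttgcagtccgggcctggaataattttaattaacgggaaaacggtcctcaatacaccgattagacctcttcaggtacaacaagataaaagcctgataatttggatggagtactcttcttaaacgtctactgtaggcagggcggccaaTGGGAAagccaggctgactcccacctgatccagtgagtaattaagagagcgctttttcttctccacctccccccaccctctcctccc
No match says only that the letters are not in this window, and sites farther from the start were not searched.

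The 48 h arrays share no sample with the 2 h comparison and compare Ikaros with the DNA-binding mutant, with no drug. Of the 92 genes higher at 2 h, all were tested there, 29 were called higher (31.5%, beside 6.62% of the 9246 genes tested in both) and 7 lower. Of the 131 lower genes, 127 were tested, 35 were called lower (27.6%, beside 9.3% of all) and 3 higher. The 29 are 4.74% of all genes called higher at 48 h and the 35 are 4.07% of those called lower. The direction was the same for 70.7% of the higher genes and 83.5% of the lower genes, where 48.3% of all genes were positive and 50.7% negative. These shares were not tested. Among the alternatives that counted direction with all 48 h arrays kept, the share of higher genes ran from 60% to 80%. The 60% was with the replicate number as a block and the 80% without vector-ERt2 replicate 2. For the lower genes it ran from 75.6%, with the lowest 60% of genes removed, to 84.7%, without vector-ERt2 replicate 2. With no filter on low genes, which puts more genes into both fits, 1.46% of the genes called at 2 h were called in the same direction at 48 h, against 29.2% with the filter. At 48 h each group had 2 arrays, and with any 1 of them left out 0 genes were called by limma, while between 2165 and 3668 had an unadjusted p under 0.05.

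P2ry10 was higher by 3.30 on the log2 scale at 48 h (adjusted p = 0.021), Lig4 by 2.97, Foxo1 by 1.78, Hhex by 1.79, Sox4 by 1.66 and Hivep2 by 1.30, all called. Fcgr2b, a small change at 2 h, was higher by 3.70 (adjusted p = 0.0274). Myc was lower by 2.86 (log2 change -2.86, adjusted p = 0.018). Inka1 (-4.83), Pax7 (-4.37), Slc22a8 (-4.30), Polr1b (-4.07), Vpreb1 (-3.92), Spn (-3.90), Vegfa (-2.81), Hk2 (-2.50) and Car9 (-1.39) were called lower too. Bnip3, by contrast, stood at -0.04 (adjusted p = 0.755) and Slc2a1 at -1.50 (adjusted p = 0.196). The 10 genes called in the opposite direction were Tbx19, Dglucy, Zmat3, Mtap, Stmn1, Cd81 and Mcm10, higher at 2 h and lower at 48 h, and Sh3bp2, Gpr155 and Il2ra, lower at 2 h and higher at 48 h. Mtap, Stmn1, Sh3bp2 and Gpr155 were named after their values were seen. At 48 h Tbx19 was near the lowest value of the arrays in Ikaros cells and Il2ra in 159A cells, so their differences have no exact size.

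**Figure D5:**
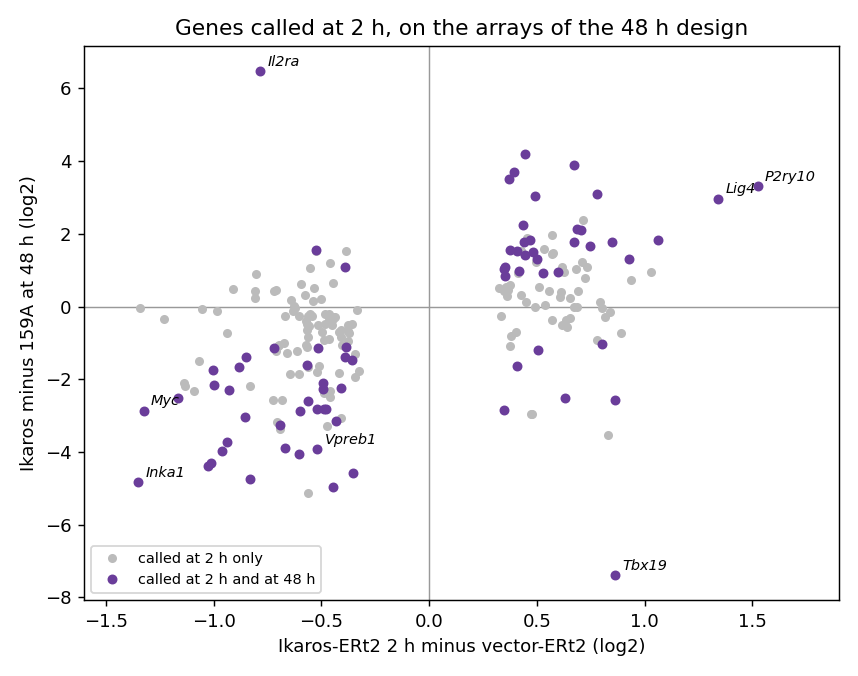
Difference at 48 h (Ikaros minus 159A, log2, 2 arrays each) against the difference at 2 h (Ikaros-ERt2 minus vector-ERt2, log2, 3 arrays each) for the genes called at 2 h and tested in both, without Ikzf1; genes called at 48 h are in colour. Most lie in the lower left and upper right, while Tbx19 lies at the lower right and Il2ra at the upper left.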

How the data were processed

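RNA of 9 samples on Affymetrix Gene 1.0 ST arrays was used, with 4 Mouse Genome arrays beside it. The authors deposited log2 values, 1 per probe set and array; per the submitters' processing notes, GCRMA, RMA, affy and limma were named, with no version and no role for either array type. The method behind the values on each type is therefore not given in the sources used here. Per the labels' protocols, RNA was isolated with RNAbee and amplified with a whole-transcript cDNA kit for Gene 1.0 ST.

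Of 35556 probe sets, 21789 had 1 gene symbol in the platform annotation, 1621 several and 12146 none here, and only the first were used. They gave 19938 genes, and the probe set with the highest mean stood for each of the 999 genes with several. Genes in the lowest 40% by mean (below 5.10) were not tested, which left 11963. One two-sided limma model (version 3.58.1, R 4.3.3) was fitted to the 9 arrays with lmFit and eBayes, and calls have a Benjamini-Hochberg adjusted p under 0.05 over all genes tested. Groups were taken from the titles. Array types were normalized separately, so the 48 h arrays were fitted alone, and no level was compared across types. On simulated data with 200 changed genes among 11963, 63% of changes of 0.5 and 100% of changes of 1 log2 unit were recovered, and 5 unchanged genes were called. The noise was drawn separately for each gene and array. Deviations shared by many genes on an array were not simulated, so these shares may not hold for the real arrays. The number of arrays limits the precision.

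The members, gene lists, tests and alternatives were chosen with earlier results of these data known. The 21 lists are described by counts and medians. Named genes were Ikzf1, the 15 largest rises and 15 largest falls among called genes whose arrays did not overlap, and of each list at most 6 called members, or else the 2 of smallest p. Others were named after their values were seen.

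Samples of the 2 groups share replicate numbers in the labels. Same-numbered samples deviated together (r = 0.12, 0.13 and 0.23 over genes, each the best match of its own number). The numbers may thus pair these groups, which is read from the data and not from a stated batch. Between Ikaros-ERt2 cells at 2 h and 6 h, r was 0.24, -0.26 and -0.17, with a best match for replicate 1 alone. Between Ikaros-ERt2 cells at 6 h and vector cells it was -0.004, -0.10 and 0.11, with a best match for replicate 3 alone. Pairing was therefore not seen across all arrays of the model. The main model had no block, and the block was run only as an alternative. The alternatives were the replicate number as a block, other filters, quantile normalization, centring, eBayes with a trend, other uses of probe sets, a stricter threshold, the 6 arrays alone, and each array left out. Promoter windows came from RefSeq on GRCm38.p6, 1 per gene, and 9565 of the tested genes had one. Of the 223 called genes, 47 had none.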

Additional observations from a re-analysis of the deposited data

Results flagged for a closer look

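The naming rule above gave 61 called genes, without those named after their values were seen. Of the 61, 10 differed between 6 h and 2 h of 4-hydroxytamoxifen in Ikaros-ERt2 cells by the test of that difference (limma, adjusted p under 0.05). The same was so for 0.903% of all genes tested. The vector arrays take no part in that difference itself, but they enter the shared estimate of its spread. The 61 genes had been called on the same 2 h arrays, so this test is not independent of how they were picked. Of the 10, 6 were lower than the vector at 2 h and higher at 6 h than at 2 h, on the log2 scale by 1.43 for Bnip3, 1.24 for Slc2a1, 1.03 for Ankrd37, 0.90 for Bhlhe40, 0.83 for Hk2 and 0.47 for Slc2a3. All 6 belong to the glucose and low-oxygen lists. The other 4 were lower at 6 h than at 2 h, Tbx19 by a log2 change of -1.55, Vpreb1 by -0.65, Sox4 by -0.63 and Polr1b by -0.43. Vpreb1 and Polr1b were already lower than the vector at 2 h, Sox4 was higher than the vector at 2 h and at its level at 6 h, and Tbx19 went from above the vector to below it. Groups of 3 arrays were too small for a test of single outlying samples.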

How the results depend on the processing

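The 223 genes called at 2 h became 141 with no filter on low genes, 141 with every probe set tested and 69 at an adjusted p under 0.01, and 82 to 176 with 1 array left out. The share of 2 h genes called in the same direction at 48 h, 29.2% before, was 1.46% with no filter, 23.1% to 32.6% with 1 array of the 2 h comparison left out (23.1% without vector-ERt2 replicate 1), and 0% without any 1 of the 48 h arrays. With the replicate number as a block, 263 genes were called (116 higher and 147 lower), or 245 with only the 6 arrays of both groups, which was added after the data were seen, as were the omissions of 48 h arrays. Beside Slc2a3, Car9 and Mcm10, the block ended no call of a named gene, and with the 6 arrays alone it also ended those of Hhex, Xbp1 and Ect2. Of the 61 named called genes, 29 stayed called with any 1 of the 6 arrays left out, and 0 changed sign under any alternative run. Dropping the filter and testing every probe set raise the number of features adjusted over, and also change the genes the model is fitted to. The stricter threshold changes the limit alone. Apart from that threshold, the cause of the moves was not tested.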

Other observations

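The called genes below lie outside the lists and the largest changes above; they were picked with their values known and stand for no theme. Gys1, the glycogen synthase gene, fell by 0.47 on the log2 scale and stood at 0.11 against the vector at 6 h. Slc37a4, the glucose-6-phosphate transporter gene, fell by 0.67 and stood at -0.34 at 6 h. Scd1, which encodes a fatty acid desaturase, fell by 0.64 and stood at -0.21 at 6 h. The carbonic anhydrase gene Car12 fell by 0.86 and stayed lower at 6 h (-0.55), while its relative Car13 rose by 0.80.

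Endod1 (-0.94), the ganglioside synthase gene St3gal5 (-0.93), the Rap1 activator gene Rapgef5 (-0.88), the G protein gene Gna15 (-0.72), the adaptor gene Dok2 (-0.81), the cytokine gene Lta (-0.81), the interleukin-17 receptor gene Il17ra (-0.71) and Cflar, which encodes an inhibitor of caspase-8 (-0.67, with -0.64 and -0.72 from its other probe sets), were called lower. Tec, a kinase gene of B-cell signalling (0.53), Peli1, a ubiquitin ligase gene (0.49), Irf1 (0.43) and Ezh2, the histone methyltransferase gene (0.38), were called higher. Irf1 had another probe set, near background, at -0.03. Peli1, Irf1, Ezh2 and Tec were also called higher at 48 h.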
